A study of Mus musculus with 13 samples.

Results

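Mitochondrial ribosomal protein genes were followed in UG26-1B6, a mouse stromal cell clone, before and during co-culture with blood-forming progenitors. They were taken as the genes whose single symbol in the platform annotation begins with Mrpl, for the large subunit, or Mrps, for the small subunit, followed by a number. This gave 76 genes, 47 with an Mrpl and 29 with an Mrps symbol, of 12215 genes tested. All 76 passed the filter on low values, a value above 2.38 on the log2 scale in at least 2 arrays. Each gene was represented by the probe set with its highest mean over the 13 arrays, and 42 of the 76 genes had several. Another 4 probe sets of mitochondrial ribosomal proteins carry the symbol of a second gene as well and were left out, so that Mrpl30 and Mrpl53 are not described.

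Mitochondrial ribosomes translate the few proteins that the mitochondrial genome encodes, all of them subunits of the respiratory chain and ATP synthase. Their RNAs come from mitochondrial DNA, but every one of their proteins is encoded in the nucleus, made in the cytosol and imported. Some of these proteins have counterparts in bacterial ribosomes and others were added during the evolution of mitochondria, among them proteins at the surface of both subunits.

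Expression was measured on Affymetrix mouse arrays in UG26-1B6, an embryonic stromal clone of the urogenital ridge, in 5 groups. Stroma was sampled after 1 day (n = 3), 2 days (n = 3) and 3 days (n = 2) with LSK cells, the Lineage- Sca-1+ Kit+ progenitor fraction, added to stroma that had received 30 Gy. A medium control was taken 24 h after fresh medium was given (n = 2), and day 0 cells were taken before co-culture (n = 3). All groups are of this 1 clone. The sources used here do not say whether the medium control and day 0 stroma had been irradiated too, or how LSK cells were removed when RNA was prepared. Replicates are called biological in the sample titles and technical in the design text, so each p-value covers the spread between these arrays alone. In such bulk RNA, fewer cells of a type and less RNA per cell cannot be told apart.

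Arrays of the same group differed in quality, and other measures moved with the groups. Replicate 1 of LSK day 2 stood apart, with a correlation of at most 0.785 with any other array. Its 3' probe set of Gapdh exceeded the 5' one by 8.96 on the log2 scale, against 2.15 to 5.79 on the other arrays, and 11 of 14 blood cell markers were above 5. Replicate 2 of LSK day 2 reached a correlation of at most 0.936 and replicate 2 of LSK day 3 of at most 0.953. The number of blood markers above 5 was 4 or 5 on LSK day 1, 6 to 11 on LSK day 2 and 6 or 7 on LSK day 3, and 0 in the medium control and at day 0. The log2 of their summed level ranged from 8.46 to 9.46 on LSK day 1, from 10.7 to 14.9 on LSK day 2 and from 12.5 to 12.8 on LSK day 3, against 6.61 to 6.63 in the medium control and 6.73 to 6.99 at day 0. Of 10 stroma markers, 4 were above 5 on replicate 1 of LSK day 2 and 8 or 9 on every other array, with Thy1 at or near the lowest value throughout. The log2 of their summed level ranged from 13.7 to 14.4 on LSK day 1, from 12.7 to 13.8 on LSK day 2 and from 13.9 to 14.2 on LSK day 3, against 14.2 to 14.5 in the medium control and 14.1 to 15.2 at day 0. Single stroma markers, chosen here after their values were seen, did not move alike. Cxcl12 was between 9.67 and 10.8 on LSK day 1, against 12.1 and 12.3 in the medium control. Vcam1 was between 8.08 and 8.68, against 10.9 and 10.7. Pdgfrb went the other way, between 12.35 and 13.27 on LSK day 1 against 10.50 and 10.84 in the medium control. Col1a1 overlapped, between 8.55 and 9.64 against 8.66 and 8.93. On all arrays 0 of 3 epithelial markers exceeded 5. Of 3 endothelial markers, Pecam1 and Cdh5 were at the lowest value on all arrays, while Kdr was above 5 on 12 of 13 arrays. It was between 8.59 and 9.19 on LSK day 1, between 2.56 and 10.2 on LSK day 2, 7.48 and 6.23 on LSK day 3, 10.4 on both arrays of the medium control and between 5.89 and 6.66 at day 0. The mean signal of the poly-A spike-in RNAs, which are added in fixed amounts to the sample, was 8.18 ± 1.44 on LSK day 1, 8.87 ± 3.43 on LSK day 2 and 10.5 ± 2.11 on LSK day 3, against 3.39 ± 0.10 in the medium control and 4.62 ± 1.24 at day 0 (SD, log2). The part of these measures in the results below was not tested.

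**Figure D1:**
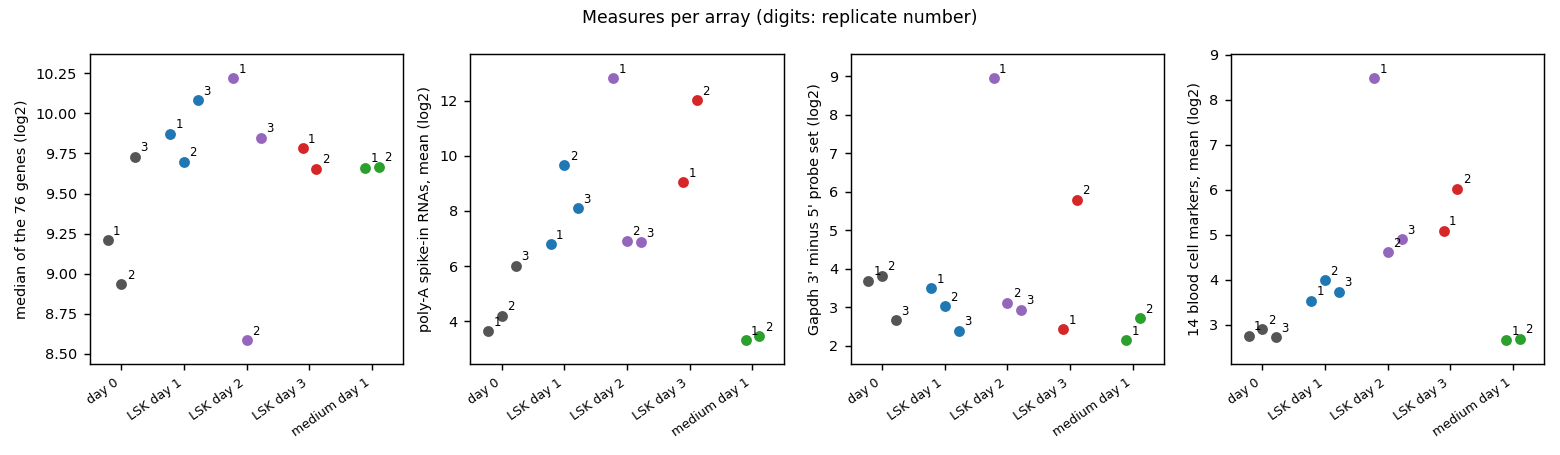
Each dot is 1 of the 13 arrays, placed by group, with its replicate number; the y axes give, on the log2 scale, the median of the 76 genes, the mean of the poly-A spike-in RNAs, the Gapdh 3' minus 5' difference and the mean of 14 blood cell markers. Replicate 1 of LSK day 2 has the highest value in all 4 panels, replicate 2 of that day the lowest median of the 76 genes, and both medium control arrays the lowest spike-in signals.

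The median level of the 76 genes moved little between groups. It was 9.88 ± 0.19 on LSK day 1, 9.55 ± 0.86 on LSK day 2 and 9.72 ± 0.09 on LSK day 3, against 9.66 ± 0.006 in the medium control and 9.29 ± 0.40 at day 0 (log2 scale, mean ± SD of the array medians). Day 0 arrays ranged from 8.93 to 9.73 and LSK day 2 arrays from 8.59 to 10.2, so the spread within these groups was as large as the steps between groups. By subunit, the small subunit median was 10.1 on LSK day 1 and 9.48 in the medium control, with the lowest day 1 array at 9.83 and the highest control array at 9.54. The large subunit median was 9.73 on LSK day 1 and 9.84 in the medium control, and these arrays overlapped. These are medians of levels over different genes. Gene by gene, the median difference between these 2 groups was 0.50 for Mrpl and 0.39 for Mrps genes. The array medians therefore do not show a rise confined to the small subunit.

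Single genes varied far more on the LSK day 2 arrays than elsewhere. The median SD of a gene within its group was 0.20 on LSK day 1, 0.92 on LSK day 2, 0.35 on LSK day 3, 0.11 in the medium control and 0.45 at day 0. On replicate 1 of LSK day 2, 27 genes lay more than 1 above their day 0 mean and 16 more than 1 below it. Mrps23, a small subunit protein without a bacterial counterpart, was at 3.10 on that array and between 9.37 and 12.1 on all others. Mrpl9, a large subunit protein with a bacterial counterpart, was at 4.44 there and between 10.3 and 11.8 elsewhere. On replicate 2 of LSK day 2, 23 genes lay more than 1 below their day 0 mean.

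**Figure D2:**
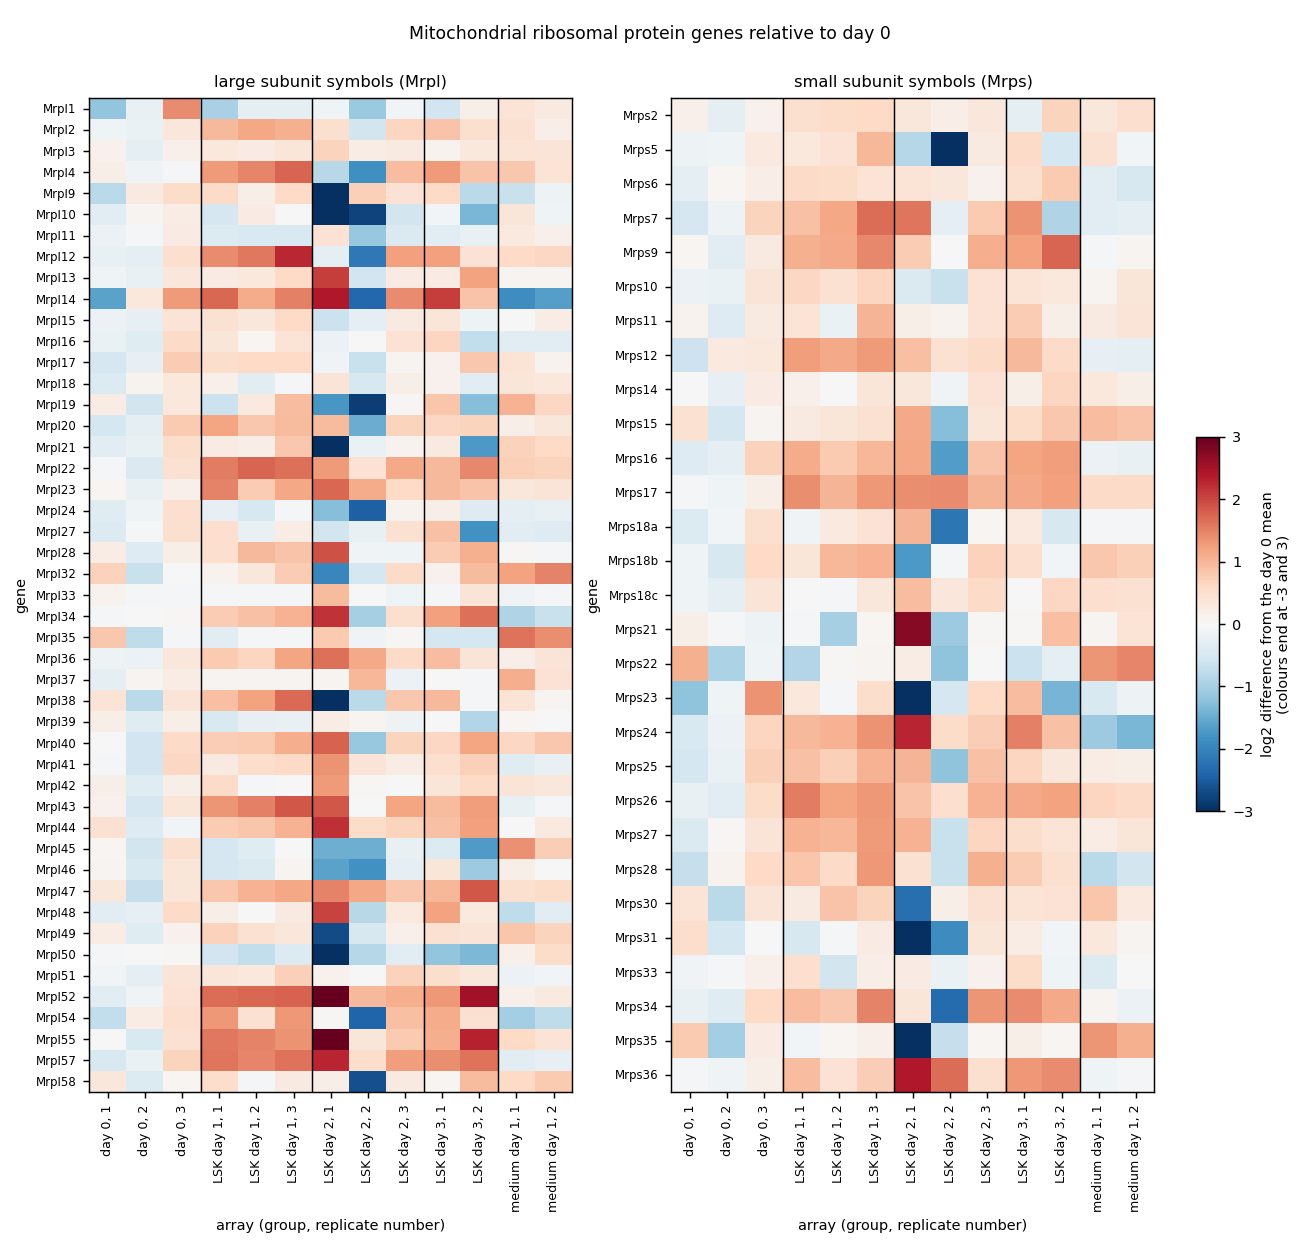
Rows are the 47 Mrpl genes on the left and the 29 Mrps genes on the right, columns are the 13 arrays by group and replicate, and colour gives the log2 difference of a value from the gene's mean over the 3 day 0 arrays. LSK day 1 arrays are mostly red in both subunits, while replicate 1 of LSK day 2 holds both the deepest red and the deepest blue fields.

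The first comparison set stroma with LSK cells for 1 day against stroma in fresh medium for 24 h. The LSK stroma had received 30 Gy, and for the medium control this is not stated. A response to LSK cells, irradiation and RNA from blood cells in the sample therefore cannot be told apart here. Of the 76 genes, 3 rose and 0 fell past an adjusted p of 0.05 (limma, Benjamini-Hochberg over all genes), all 3 in the small subunit: Mrps24, Mrps12 and Mrps6. That is 3.95% of the 76 genes, beside 5.21% of all genes tested, 2.16% higher and 3.05% lower. The median difference was 0.44 on the log2 scale over the 76 genes, 0.50 for Mrpl and 0.39 for Mrps genes, and 0.00 over all genes tested. Group means were higher with LSK cells for 30 of 47 Mrpl and 22 of 29 Mrps genes, and for 55% of all genes. All LSK arrays lay above both control arrays for 42 genes (30.6% of all genes did) and below them for 16 genes (31.8% of all genes).

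Mrps24, the mitochondrial counterpart of bacterial S3 in the head of the small subunit, was at 11.3, 11.3 and 11.6 with LSK cells for 1 day, against 9.20 and 8.93 in the medium control. The LSK arrays were all above the control arrays by more than the spread of either group, and the day 0 arrays, at 9.83, 10.1 and 10.9, lay between them. The difference was 2.34 ± 0.51 (SE; limma adjusted p = 0.0365), and a second Mrps24 probe set differed by 2.08.

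Mrps12, the counterpart of bacterial S12, which lies at the decoding centre and bears on the accuracy of codon reading, was at 9.17, 9.05 and 9.19 on LSK day 1 and at 7.66 and 7.65 in the medium control. The groups did not overlap, and Mrps12 has a single probe set. It rose by 1.48 ± 0.29 (limma adjusted p = 0.0278).

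Mrps6, the counterpart of bacterial S6 on the platform of the small subunit, was at 12.0, 12.0 and 11.8 on LSK day 1 and at 11.1 and 10.9 in the medium control. This difference of 0.93 ± 0.20 passed the test (limma adjusted p = 0.0358), but the gene's second probe set differed by -0.46. The call for Mrps6 therefore rests on the choice of probe set. Over 22 alternatives the calls held in 13 for Mrps24, 14 for Mrps12 and 11 for Mrps6, and all 3 were lost when either control array or any 1 of the LSK day 1 arrays was left out.

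Among genes that did not pass, Mrpl14, the counterpart of bacterial L14 at the interface of the subunits, differed most, by 3.20 ± 1.27 (limma adjusted p = 0.184). Mrpl14 was at 9.03, 8.42 and 8.81 on LSK day 1, against 5.45 and 5.66 in the medium control, and its large error comes with values of 9.71, 4.94 and 8.73 on LSK day 2 and 5.70, 7.62 and 8.59 at day 0. It was chosen after its values were seen, as were Mrpl57 and Mrpl35, which came next to the threshold. Mrpl57, a mitochondrial addition to the large subunit, differed by 1.86 ± 0.47 (limma adjusted p = 0.0543). Mrpl35, a counterpart of bacterial L35, was at 8.20, 8.47 and 8.46 with LSK cells and at 10.2 and 9.92 in the medium control, a difference of -1.66 ± 0.42 (limma adjusted p = 0.0539). At day 0 Mrpl35 was at 9.34, 7.76 and 8.46, so LSK day 1 was near the day 0 level, with a difference of -0.14 ± 0.38.

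Proteins with separate functions or unusual places in the ribosome gave no call. Mrpl12, a stalk protein that recruits translation factors and also binds mitochondrial RNA polymerase, was at 10.7, 10.9 and 11.6 on LSK day 1 and at 9.90 and 9.92 in the medium control. Those arrays did not overlap, but with LSK day 2 values between 7.16 and 10.5 in the same fit the difference of 1.14 ± 0.79 had an adjusted p of 0.495 in limma. Mrpl11, at the base of the stalk, was at 9.41, 9.37 and 9.37 against 10.1 and 9.97, a difference of -0.66 ± 0.37 (limma adjusted p = 0.371). The paralogs Mrps18a, Mrps18b and Mrps18c, related to bacterial S18, differed by 0.24, 0.04 and -0.37. Mrps30, which in mammalian structures sits in the large subunit as Mrps18a does, differed by 0.03. Mrps36, which is now known as a component of 2-oxoglutarate dehydrogenase, differed by 0.79 ± 0.45. With Mrps18a and Mrps30 counted in the large subunit and Mrps36 in neither, the medians were 0.35 for the large and 0.48 for the small subunit, so that their order depended on where these proteins were placed.

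**Figure D3:**
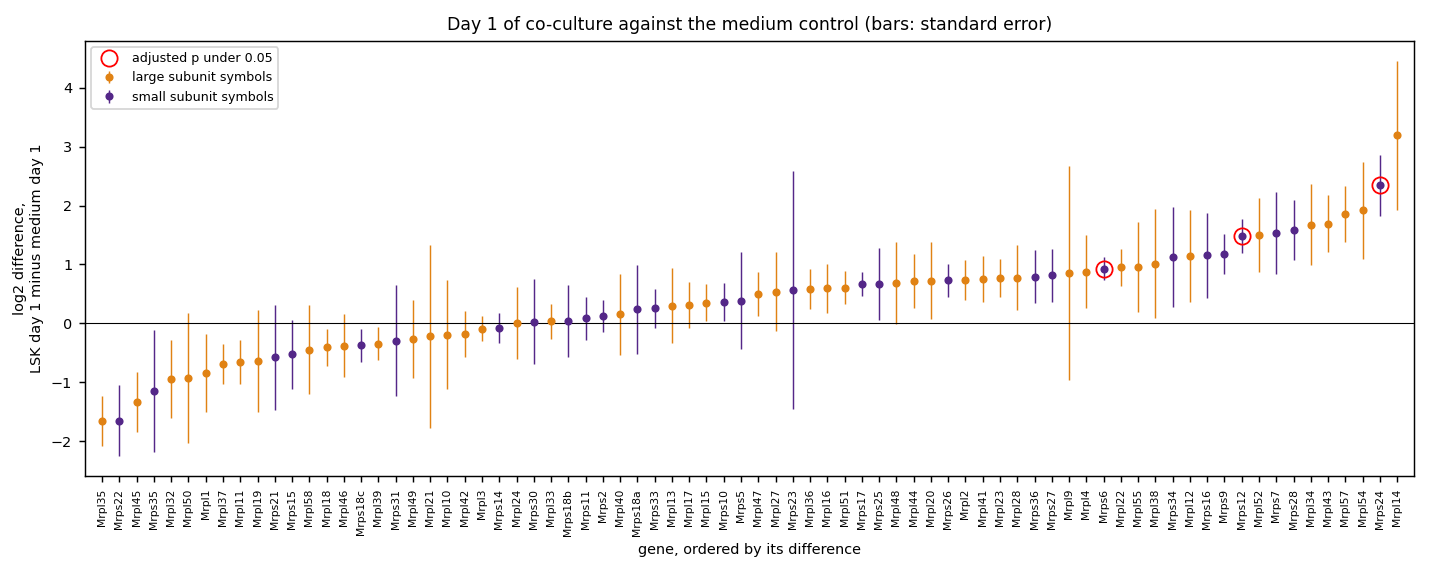
The y axis gives the log2 difference of LSK day 1 minus medium control for each of the 76 genes on the x axis, ordered by size, with standard errors; orange marks Mrpl and purple Mrps genes. Red rings mark Mrps6, Mrps12 and Mrps24, which passed the test, while Mrpl14 at the right end has the largest difference and a wide error.

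Without replicate 1 of LSK day 2, an array that is in neither group but adds to each gene's estimated spread, 12 of the 76 genes passed, against 17.2% of all genes. Of these, 10 were higher with LSK cells. Beside Mrps24, Mrps12 and Mrps6 they were Mrps17, Mrps9, Mrpl28, Mrpl34, Mrpl43, Mrpl52 and Mrpl57, at differences from 0.67 for Mrps17 to 1.86 for Mrpl57. The 2 that were lower were Mrpl35, at -1.66, and Mrpl50, a mitochondrial addition, at -0.93. Without that array, replicate 2 of LSK day 2 and replicate 2 of LSK day 3, 25 genes passed, 21 higher and 4 lower, beside 30.8% of all genes. Without replicate 2 of LSK day 2 alone, 11 genes passed, which is 14.5% of the 76 genes, beside 7.97% of all genes. The share of the 76 genes was thus below, near or above that of all genes, depending on the arrays in the fit.

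The medium control against day 0 compared stroma 24 h after fresh medium was given with stroma before co-culture. Fresh medium, a further day in culture and irradiation, which is not stated for either group, cannot be told apart here. No member passed the test in limma (0 of 76, against 0.327% of all genes), while 3 were higher and 1 was lower at an unadjusted p under 0.05, beside 4.9% and 4.54% of all genes. Without replicate 1 of LSK day 2 the count stayed at 0, beside 1.37% of all genes. The median difference was 0.23 over the 76 genes and 0.00 over all genes, with higher means for 52 of the 76 genes and for 45.1% of all genes. Medium control arrays lay wholly above day 0 for 25 genes and wholly below for 5, while 20.6% and 22.6% of all genes did so. Mrpl35 had the highest difference, 1.51 ± 0.42 (limma adjusted p = 0.228), followed by Mrps22, a mitochondrial addition, at 1.40 ± 0.60. The lowest were Mrpl14 at -1.75 ± 1.27 and Mrps24 at -1.23 ± 0.51. This comparison shares the medium control arrays with the one above.

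Against day 0, LSK day 1 stroma had 4 of 76 genes higher and 0 lower in limma, where 2.15% of all genes passed, 0.827% higher and 1.33% lower. These were Mrpl22, Mrps26, Mrps17 and Mrps12. The median difference was 0.51 over the 76 genes, 0.46 for Mrpl and 0.58 for Mrps genes, beside 0.00 over all genes. All genes are not matched to the 76 in level: their day 0 array medians were 7.47, 7.52 and 7.53, against 9.21, 8.93 and 9.73. With a stricter filter, a value above 4 in at least 3 arrays, the median over all genes was -0.05 here. It was then -0.60 for LSK day 2 and -0.13 for LSK day 3 against day 0. Means were higher for 36 of 47 Mrpl and 26 of 29 Mrps genes (48.4% of all genes). LSK day 1 arrays lay wholly above day 0 for 33 genes and wholly below for 2, while 17.7% and 21.3% of all genes did so. Without replicate 1 of LSK day 2, 13 genes were higher, beside 10.6% of all genes called in either direction, and without the 3 doubted arrays 22 were higher and 2 lower, beside 23.2%.

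Mrpl22, the counterpart of bacterial L22, which lines the exit tunnel for the new protein chain, was at 11.7, 11.9 and 11.8 on LSK day 1 and at 10.2, 9.77 and 10.7 at day 0. The groups did not overlap, and the medium control, at 10.9 on both arrays, lay between them. The difference was 1.64 ± 0.29 (limma adjusted p = 0.0289).

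Mrps26, a small subunit protein without a bacterial counterpart, was at 11.8, 11.4 and 11.5 on LSK day 1 and at 10.00, 9.89 and 10.8 at day 0. All LSK arrays were higher, by 1.35 ± 0.25 on average (limma adjusted p = 0.0344). The medium control, at 10.87 and 10.80, lay between the groups, above the highest day 0 value of 10.77. Mrps12 was at 7.30, 8.21 and 8.23 at day 0, below its LSK day 1 values given above, with a difference of 1.22 ± 0.26 (limma adjusted p = 0.0496). This value was near the threshold and passed in 5 of 22 alternatives, against 13 for Mrpl22 and 12 for Mrps26. All 4 calls were lost when any 1 of the LSK day 1 arrays, or replicate 2 of day 0, was left out.

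Mrps17, the counterpart of bacterial S17, an early-binding protein of the small subunit in bacteria, was the only one of the 76 genes past the threshold against day 0 on all 3 days of co-culture. It was at 10.8, 10.4 and 10.7 on LSK day 1, at 10.8, 10.8 and 10.4 on LSK day 2 and at 10.5 and 10.6 on LSK day 3, against 9.36, 9.27 and 9.56 at day 0. Every co-culture array was above every day 0 array, both medium control arrays lay between them at 9.96 and 9.97, and replicate 1 of LSK day 2 did not stand apart. The differences were 1.24 ± 0.18 on LSK day 1, 1.28 ± 0.18 on LSK day 2 and 1.18 ± 0.20 on LSK day 3, with adjusted p-values in limma of 0.0127, 0.0150 and 0.0378. The day 0 arrays are shared by these comparisons. The call held in 16 of 22 alternatives for LSK day 1, in 16 for LSK day 2 and in 6 for LSK day 3.

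**Figure D4:**
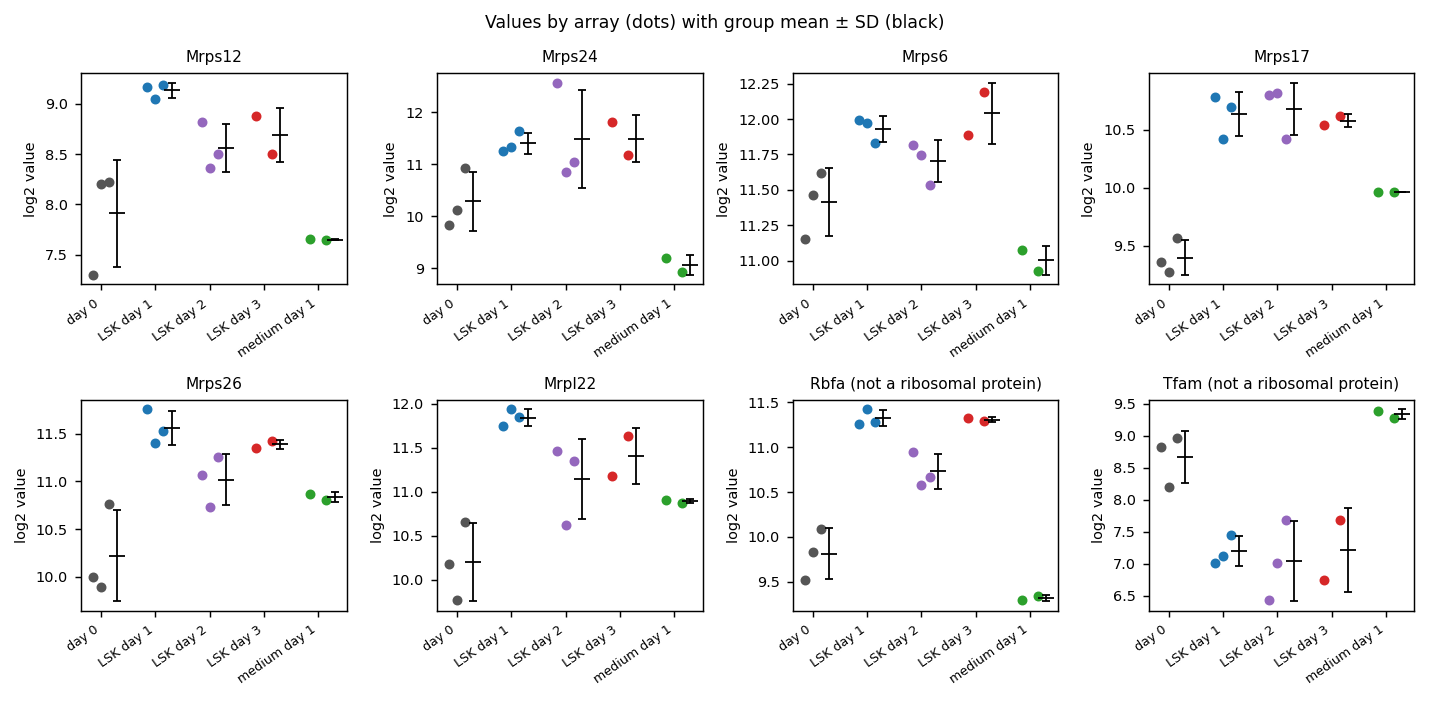
Dots give the log2 value on each array for the 6 called genes and for Rbfa and Tfam, by group, with the group mean ± SD in black. For Mrps12, Mrps24 and Mrps6 the medium control is below all LSK arrays, for Mrps17 all co-culture arrays lie above 10.4, and Tfam alone is lower in co-culture.

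Promoters of called genes are shown because the 76 genes are a set of widely scattered nuclear genes for which common promoter motifs are known as background: sites for NRF1, the ETS factor GABP and YY1. RefSeq promoters (build GRCm38.p6, 250 bases before to 50 after a start) were matched by symbol for 67 of the 76 genes, with 73 starts. The motifs searched on both strands were GCGCANGCG for NRF1, CCGGAAG for ETS factors, AAGATGGC for YY1 and, for comparison, the E-box CACGTG. The 4 promoters of the called genes that held any of the first 3 follow, 5′ to 3′ on the strand of the gene, with matches in capitals. Those of Mrps6 and Mrps17 held none of them in this window.
Mrps12 (GRCm38.p6, chr7:28741772-28742071, minus strand; YY1, then ETS): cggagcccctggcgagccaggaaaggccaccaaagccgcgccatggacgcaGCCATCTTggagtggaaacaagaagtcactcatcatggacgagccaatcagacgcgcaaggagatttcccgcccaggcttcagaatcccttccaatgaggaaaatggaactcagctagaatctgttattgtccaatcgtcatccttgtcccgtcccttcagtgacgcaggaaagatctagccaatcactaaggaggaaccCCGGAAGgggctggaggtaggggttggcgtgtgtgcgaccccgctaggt
Mrps24 (GRCm38.p6, chr11:5707652-5707951, minus strand; YY1): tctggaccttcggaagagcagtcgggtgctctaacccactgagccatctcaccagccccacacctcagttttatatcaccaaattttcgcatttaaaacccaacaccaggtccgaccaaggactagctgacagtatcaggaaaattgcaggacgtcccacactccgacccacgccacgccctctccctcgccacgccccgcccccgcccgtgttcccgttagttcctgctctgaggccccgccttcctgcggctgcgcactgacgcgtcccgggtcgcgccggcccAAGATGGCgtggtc
Mrps26 (GRCm38.p6, chr2:130563507-130563806, plus strand; ETS, then overlapping NRF1 matches): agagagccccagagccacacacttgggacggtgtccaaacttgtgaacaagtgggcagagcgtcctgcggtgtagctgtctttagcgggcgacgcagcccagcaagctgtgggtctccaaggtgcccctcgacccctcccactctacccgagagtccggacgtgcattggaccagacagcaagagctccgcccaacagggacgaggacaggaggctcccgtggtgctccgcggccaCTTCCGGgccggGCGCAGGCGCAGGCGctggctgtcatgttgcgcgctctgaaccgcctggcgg
Mrpl22 (GRCm38.p6, chr11:58171414-58171713, plus strand; ETS, then NRF1): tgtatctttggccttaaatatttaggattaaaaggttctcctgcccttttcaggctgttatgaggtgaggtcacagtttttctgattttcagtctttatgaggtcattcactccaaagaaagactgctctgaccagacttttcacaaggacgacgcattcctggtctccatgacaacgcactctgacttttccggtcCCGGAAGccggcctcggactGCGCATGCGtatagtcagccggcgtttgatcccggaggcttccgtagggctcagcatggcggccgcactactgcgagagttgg

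The YY1 letters were in 16.4% of the 73 promoters of the 76 genes, beside 4.21% of the 12645 promoters of genes tested on the arrays and 2.75% of all 32851 promoters. The ETS letters were in 34.2% of the members' promoters, 16.7% of those of the genes tested and 8.86% of all. The NRF1 letters were in 20.5%, 12.7% and 6.25% of these sets, and the E-box, with 9.59%, 9.72% and 7.15%, was about as frequent in the members as in the genes tested. The median GC content was 58.7% in the members' promoters and 60.7% in those of the genes tested. Among members whose LSK day 1 arrays were all above the medium control, 5 of 41 promoters held the YY1, 14 the ETS and 9 the NRF1 letters, and among those all below it 3, 6 and 4 of 15 did. A match is a description of the sequence, and binding was not measured.

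Several of the 76 genes share their promoter region with a neighbour. In the RefSeq table of GRCm38.p6, 26 of them start within 1000 bases of the start of a gene that runs the other way, or overlap it by up to 100 bases, and 21 of these neighbours were tested. Mrpl14 and its neighbour Tmem63b differed by 3.20 and 2.72 between LSK day 1 and the medium control. Mrpl57 and Ska3 differed by 1.86 and -0.76, and Mrpl43 and Twnk, which encodes the mitochondrial DNA helicase, by 1.69 and -0.64. These pairs were chosen after their values were seen.

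On the second day of co-culture, Mrps17 alone passed in limma against day 0 (1 of 76, beside 2.25% of all genes, 0.639% higher and 1.61% lower), and the median difference was 0.21 for the 76 genes and -0.29 for all genes. By subunit it was 0.09 for Mrpl and 0.23 for Mrps genes, and means were higher for 46 of the 76 genes and 38.5% of all genes. LSK day 2 arrays lay wholly above day 0 for 10 genes and wholly below for 2, where 6.46% and 16.2% of all genes did so. Without replicate 1 the median was -0.02 for the 76 genes and -0.10 for all genes, and without replicate 2 it was 0.44 and -0.24, so the direction rested on these arrays. Without replicate 3, which leaves the 2 arrays of LSK day 2 that stood apart, 16 genes were called, 7 higher and 9 lower, beside 28.6% of all genes.

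After 3 days with LSK cells, Mrps17 was again the gene past the threshold against day 0 (1 of 76 in limma, beside 0.819% of all genes, 0.352% higher and 0.467% lower). The median difference was 0.47, with 0.48 for Mrpl and 0.46 for Mrps genes, and 0.00 over all genes. Means were higher for 31 of 47 Mrpl and 26 of 29 Mrps genes, beside 46.8% of all genes. LSK day 3 arrays lay wholly above day 0 for 28 genes (15% of all genes) and wholly below for 2 (20.5%). Without replicate 1 of LSK day 2, 11 genes were higher and Mrpl50 was lower, beside 7.7% of all genes. Among the 11, Mrpl52, a mitochondrial addition to the large subunit, had the largest difference, 1.92 ± 0.34 (limma adjusted p = 0.0168), with 11.7 and 12.9 on LSK day 3 against 10.1, 10.3 and 10.9 at day 0. Its 2 other probe sets past the filter differed by 2.10 and 2.20. Mrps36 was at 8.12 and 8.24 on LSK day 3 and at 6.77, 6.68 and 7.01 at day 0, a difference of 1.36 that passed without that array (limma adjusted p = 0.0391) and not with it (0.207).

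**Figure D5:**
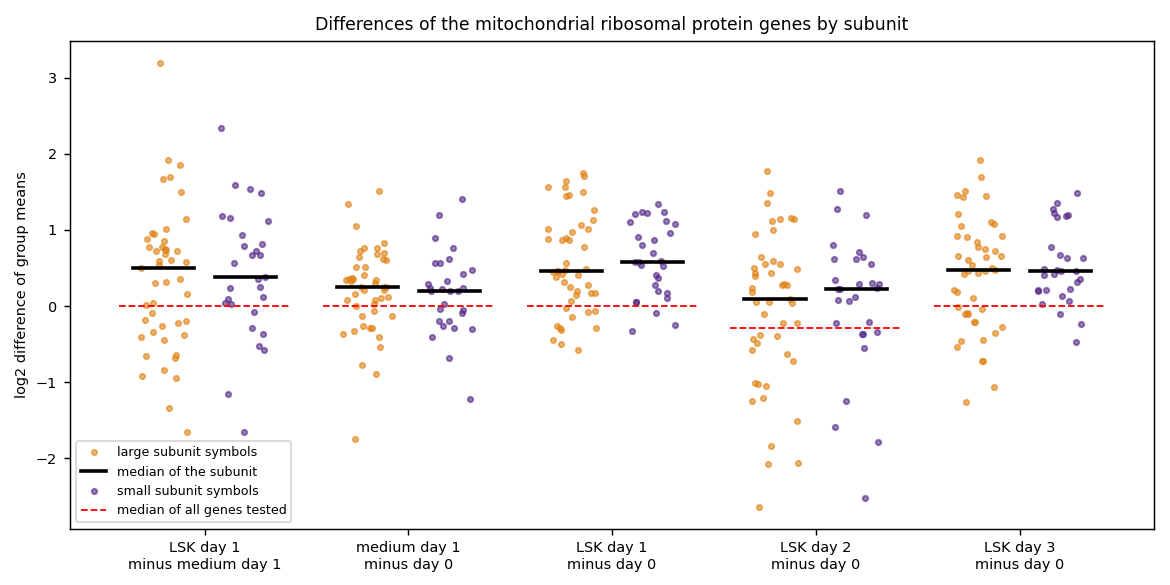
Each dot is a gene, orange for Mrpl and purple for Mrps, placed on the y axis by its log2 difference of group means in the comparison named below it; black bars are subunit medians and red dashed lines the median of all genes tested. Subunit medians lie above the red line in all 5 comparisons, nearest to it for the medium control against day 0, and LSK day 2 has the longest lower tail.

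Between days of co-culture none of the 76 genes passed. LSK day 2 against LSK day 1 gave 0 calls in limma (0.00819% of all genes passed), with 11 genes lower and 0 higher at an unadjusted p under 0.05, beside 10.7% and 1.96% of all genes. The median difference was -0.54 for the 76 genes and -0.19 for all genes, and without replicate 2 of LSK day 2 it was -0.08 and -0.17. Means were higher for 25 of the 76 genes and 37.5% of all genes. The lowest differences were those of Mrps23 at -2.79 ± 1.81 and Mrpl10, a protein of the stalk, at -2.56 ± 0.83, and the highest were Mrps21 at 0.88 ± 0.80 and Mrps36 at 0.82 ± 0.40. Other Mrps23 probe sets past the filter differed by -0.47 and 0.15. With each array left out in turn, the Mrps23 difference ranged from -4.35 to -0.23. LSK day 2 arrays lay wholly below LSK day 1 for 16 genes and wholly above for 1, where 9.88% and 2.5% of all genes did so. LSK day 3 against LSK day 1 gave 0 calls (0.00819% of all genes) and 0 at an unadjusted p under 0.05. Its median difference was -0.08 for the 76 genes and -0.02 for all genes, and means were higher for 32 of the 76 genes and 44.4% of all genes. Day 3 arrays lay wholly above day 1 for 6 genes and wholly below for 12, where 8.27% and 11.5% of all genes did so. The lowest there were Mrpl21 at -1.14 ± 1.56 and Mrps7 at -1.01 ± 0.70, and the highest Mrps21 at 0.80 ± 0.89 and Mrps36 at 0.66 ± 0.45.

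Proteins with a bacterial counterpart and mitochondrial additions were described apart. Mrpl55, Mrps28 and Mrps36 were placed in neither kind, and Mrps18a and Mrps18b were counted among the additions. For LSK day 1 against the medium control the median difference was 0.39 for the 43 genes with a bacterial counterpart and 0.25 for the 30 additions. The 3 called genes were of the first kind, beside 5.21% of all genes called, and the call for Mrps6 rests on the choice of probe set. Against day 0 the medians were 0.52 and 0.47 on LSK day 1, 0.22 and -0.08 on LSK day 2 and 0.46 and 0.44 on LSK day 3. Different probe sets of a gene often differed in sign. The counts that follow include probe sets near the lowest value, such as those of Mrpl57 and Mrpl58 with means of 2.51 and 2.31. A difference of exactly 0 also counted as another sign, so the counts can overstate disagreement. Of 35 members with other probe sets past the filter, all had the same sign for 20 in LSK day 1 against the medium control and for 20 in LSK day 1 against day 0. Against day 0 this held for 21 in the medium control, 14 on LSK day 2 and 18 on LSK day 3. Against LSK day 1 it held for 11 on LSK day 2 and 16 on LSK day 3.

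The machinery around the mitochondrial ribosome was followed in lists of assembly and translation factors, aminoacyl-tRNA synthetases, regulators of mitochondrial transcription, and ribosomal proteins under other symbols. Among 36 assembly and translation factors, Rbfa was the single gene called in LSK day 1 against the medium control, and it was higher. In that comparison 5.21% of all genes were called. Rbfa encodes a factor that matures the small subunit and was at 11.3, 11.4 and 11.3 on LSK day 1, against 9.30 and 9.35 in the medium control. It differed by 2.00 ± 0.21 (limma adjusted p = 0.00297), and by 1.51 ± 0.18 on LSK day 1 (0.00945), 0.92 ± 0.18 on LSK day 2 (0.0426) and 1.49 ± 0.21 on LSK day 3 (0.0230) against day 0. Its groups did not overlap in any of these comparisons. The median of the list was -0.02 in LSK day 1 against the medium control, beside 0.44 for the 76 genes.

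Of 17 regulators of mitochondrial transcription and biogenesis measured, 1 rose and 1 fell in LSK day 1 against the medium control. Of all genes, 2.16% were higher and 3.05% lower there. Tfam, which packages mitochondrial DNA and starts its transcription, was at 7.01, 7.13 and 7.46 on LSK day 1, against 9.39 and 9.28 in the medium control. It fell by 2.14 ± 0.41 on the log2 scale (limma adjusted p = 0.0248), and its second probe set differed by -1.16. Esrra, a nuclear receptor that drives genes of oxidative metabolism, was at 8.77, 9.58 and 9.86 on LSK day 1 and at 5.28 and 4.85 in the medium control, a difference of 4.34 ± 0.86 (limma adjusted p = 0.0277), while its second probe set differed by 0.63. At day 0 Esrra was at 6.30, 7.46 and 8.21, above the medium control. Against day 0, LSK day 1 differed by 2.08 ± 0.77 (limma adjusted p = 0.197), with the second probe set at -0.02. The medium control differed from day 0 by -2.26 ± 0.86. Mterf2, a mitochondrial termination factor family member, was lower on LSK day 2 than at day 0 by 2.00 on the log2 scale (limma adjusted p = 0.0393).

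Among 18 mitochondrial aminoacyl-tRNA synthetases measured, Cars2, which charges the cysteine tRNA, was 1.09 ± 0.26 higher on LSK day 1 than in the medium control (limma adjusted p = 0.0441), and another Cars2 probe set differed by -0.03. No other synthetase was called there, beside 5.21% of all genes. None of the 4 measured mitochondrial ribosomal proteins with other symbols, Dap3, Ptcd3, Chchd1 and Gadd45gip1, passed in any comparison, and their median difference in LSK day 1 against the medium control was -0.06. Of 77 nuclear genes of the respiratory chain and ATP synthase, 5 were higher and 0 lower in that comparison, beside 2.16% and 3.05% of all genes. The list median was 0.28. Cox6b1, a cytochrome c oxidase subunit, was among the 5 called genes at 1.10, with a second probe set at 1.05. Of 44 cytosolic ribosomal protein genes, Rpl22 was higher by 1.11 and Rpl4 was lower by 1.43 on the log2 scale there, and the list median was 0.11. No other gene of this list was called, beside 5.21% of all genes. Against day 0, the medians of the cytosolic ribosomal list were 0.38, 0.33 and 0.53 on LSK days 1, 2 and 3. Those of the respiratory chain list were 0.27, 0.22 and 0.39, beside 0.51, 0.21 and 0.47 for the 76 genes. Medians above 0 against day 0 were thus not particular to the 76 genes.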

How the data were processed

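Expression was measured in 13 arrays of 5 groups, grouped by their titles. The authors deposited 1 log2 value per probe set and array, between 2.28 and 15.7; the tools listed per the submitters' processing notes include RMA and GCRMA, and which of them made these values, and in which version, is not stated there. The table was analysed without rescaling, scanner files were not used, and precision is limited by how few arrays there are.

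Of 45101 probe sets, 64 were controls, 34945 had 1 gene symbol, 932 several and 9160 none. Probe sets over 2.38, the pooled median, in at least 2 arrays were kept, and the one with the highest mean stood for its gene. All arrays entered a single limma 3.58.1 fit (R 4.3.3; lmFit, contrasts, eBayes) with a mean per group. P-values were adjusted by Benjamini-Hochberg over 12215 genes (threshold 0.05). A difference is that of 2 group means on the log2 scale, given ± its standard error. The test was checked on simulated data. Levels are not compared between genes, since probe sets differ in response. Figures were drawn with matplotlib 3.10.9.

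The members, gene lists and tests were chosen with earlier results of these data known. The text names up to 4 called genes per direction and comparison, or the 2 highest and 2 lowest where none passed, always Mrpl12, Mrpl11, Mrps12, Mrps18a, Mrps18b, Mrps18c, Mrps30 and Mrps36, and up to 3 called genes per pathway list. Genes named beyond this were chosen after their values were seen, including those called without doubted arrays. Alternatives changed the filter, the scaling, the use of probe sets, the variance model and the arrays in the fit, or added the replicate number as a block. Leaving out 3 doubted arrays together was added after seeing the data.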

Additional observations from a re-analysis of the deposited data

How the results depend on the processing

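The counts of called genes changed with the processing; the percentage of all genes called in the same fit stands in brackets. For LSK day 1 against the medium control, the 3 calls became 5 after quantile normalization (5.67%), 0 after centring (2.05%), 1 with a trended robust variance (3.54%), 36, 29 of them higher, in a fit of these groups alone (37.4%) and 25 without the 3 doubted arrays (30.8%), and its median of 0.44 became 0.62 with quantiles and 0.26 with the mean of probe sets. For LSK day 1 against day 0, the 4 calls became 1 with a stricter filter (1.3%), 0 after centring (0.966%), 2 with the trended variance (1.24%), 15 in the fit of these groups alone (14.6%) and 24 without the 3 arrays (23.2%). For LSK day 2 against day 0, the 1 call became 0 after centring (0.819%) and in the fit of these groups alone (0%). The median of 0.21 became 0.98 after centring, 0.50 with quantiles and 0.05 with the mean of probe sets. It was 0.44 without the 3 arrays, which leaves 1 array of LSK day 2. For LSK day 3 against day 0, the 1 call became 0 with the stricter filter (0.455%), quantiles (0.54%) and centring (0.287%). It also became 0 with the trended variance (0.647%) and in the fit of these groups alone (0.213%). Without the 3 arrays, which leaves 1 array of LSK day 3, the median of 0.47 became 0.57. The medium control against day 0 gave 1 call without the 3 arrays (6.18%), Mrpl34, which was lower. The median of -0.54 for LSK day 2 against LSK day 1 became 0.0866 after centring and -0.18 with quantiles. Centring also shifted all genes: their median was then 0.15 for LSK day 1, 0.49 for LSK day 2 and 0.20 for LSK day 3 against day 0, and 0.43 for LSK day 2 against LSK day 1. The cause of these shifts was not tested, except that leaving out arrays changes the pooled spread by construction.

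Same-numbered arrays correlated between -0.37 and 0.261 in their deviations from group means (23 pairs, 8 of them over 0.1). Arrays with other numbers correlated between -0.379 and 0.38 (44 pairs, 12 of them over 0.1). Deviations from means of 2 or 3 arrays are tied to each other, so these values cannot decide whether the numbers pair the arrays. With the replicate number as a block, LSK day 1 against the medium control gave 0 calls (1.7% of all genes) and a median of 0.23. LSK day 1 against day 0 gave 2 calls (0.843% of all genes). LSK day 2 and day 3 against day 0 gave 0 each (0.229% and 0.0327% of all genes).

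With each array left out in turn, calls ranged from 0 to 12 for LSK day 1 against the medium control, 0 to 1 for the medium control against day 0, 0 to 13 for LSK day 1, 0 to 16 for LSK day 2 and 0 to 12 for LSK day 3 against day 0. They ranged from 0 to 13 for LSK day 2 and 0 to 0 for LSK day 3 against LSK day 1. The medians ranged from 0.37 to 0.51, 0.13 to 0.39, 0.37 to 0.72, -0.02 to 0.44, 0.29 to 0.61, -0.56 to -0.08 and -0.16 to -0.03 in these 7 comparisons, in that order. The highest counts came without replicate 1 of LSK day 2, except for the 16 (28.6%) and the 13 (15.5%), which came without replicate 3 of that day, and the 1 call for the medium control, without replicate 1 of day 0. Without replicate 2 of LSK day 2, LSK day 1 had 11 calls against the medium control (7.97%) and 9 against day 0 (4.12%).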
